A study of Mus musculus with 16 samples.

Results

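The 42 genes described here are cell cycle and proliferation genes measured in mouse lung microvascular endothelial cells (MLECs). They were the rows of the count table that carry the symbols of a list of cyclins, cyclin-dependent kinases (CDKs), CDK inhibitors, cell cycle transcription factors, DNA replication genes and mitosis genes. All 42 symbols were found, each in 1 row, among 55414 listed genes. All 42 also passed the filter on low counts, which left 15693 genes for testing, and no member was lost.

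There were 16 libraries from 4 independent isolations of these cells, with 1 library of each isolation in each of 4 groups. The cells came from *Rosa26-CreERT2;Eng fl/fl* mice that also carried the Immorto transgene, and all 4 groups share these alleles. *Eng* encodes endoglin, an endothelial co-receptor for BMP9. Ctrl cells received vehicle and KO cells received 4-OH-tamoxifen, which activates the Cre recombinase, so the effects of the lost gene and of 4-OH-tamoxifen cannot be told apart. Cre is driven from a ubiquitous locus in this line. Serum-starved cells were treated for 90 minutes with PBS or with BMP9 (0.2 ng/ml, counted as its growth factor domain). The BMP9 given to Ctrl cells was bound to monomeric soluble endoglin (sENG(M):BMP9), and that given to KO cells was bound to its prodomain (pro:BMP9), so genotype and form of the ligand cannot be told apart either. No age or sex was given in the labels.

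The Immorto transgene is a limit of these cells as a model of the cell cycle. It encodes a temperature-sensitive large T antigen of SV40 under an interferon-γ-inducible promoter, and large T antigen binds and inactivates the retinoblastoma protein (RB) and p53. The cultures were maintained with interferon-γ and with SB431542, an inhibitor of TGF-β type I receptors. Both were withdrawn, and the temperature was raised, before the cells were starved of serum and treated. How much activity of the antigen remained at that temperature was not tested. No value for the transgene itself was analysed here.

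In a dividing cell, D-type cyclins with CDK4 or CDK6, and then cyclin E with CDK2, phosphorylate RB and so release E2F transcription factors, which turn on the genes for DNA replication. Later in the cycle, B-MYB, FOXM1 and the MuvB complex turn on the genes for mitosis, while CDK inhibitors of the INK4 and CIP/KIP families hold the kinases back. BMP9 signals in endothelium through ALK1 and SMAD1/5 and is known as a factor that keeps vessels quiescent.

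The libraries held 14869115 to 17242117 counts (median 15996523.5). *Eng* itself lay between 375 and 594 CPM in the Ctrl PBS libraries and between 525 and 776 CPM in the Ctrl sENG(M):BMP9 libraries, against 40.1 to 60 CPM in KO PBS and 115 to 130 CPM in KO pro:BMP9. Each library thus matched the genotype of its label. The values of both Ctrl groups overlapped, so the level of *Eng* alone does not check the treatment label of a Ctrl library. Within each isolation *Eng* was higher with ligand, at 432 and 652, 594 and 776, 375 and 525, and 439 and 612 CPM in isolations 1 to 4. CPM are counts scaled to a common library size after normalisation. All 12 endothelial markers examined had counts in every isolation, with *Pecam1* between 703 and 1950 CPM and *Cdh5* between 1450 and 2790 CPM. Others of the 12 were lower, such as *Kdr* at 26.2 to 209 CPM, *Cldn5* at 39.9 to 240 CPM and *Vwf* at 2.83 to 43 CPM. Genes of a lymphatic endothelial list were also present, with *Lyve1* at 3040 to 5710 CPM, *Flt4* at 386 to 1270 CPM and *Prox1* at 6.34 to 66.1 CPM. *Ptprc*, *Cd3e*, *Adgre1*, *Epcam* and *Sftpb*, which define leukocytes and epithelium, had at most 6 counts in any library. Other genes of the leukocyte and epithelial lists were present in every library, with *Cd68* at 460 to 630 counts, *Cd14* at 191 to 1443, the keratin genes *Krt18* at 781 to 2808 and *Krt8* at 26 to 756, and *Cdh1* had up to 62 counts. In bulk RNA, fewer cells in a phase of the cycle and less RNA per cell cannot be told apart.

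The 42 genes lay at very different levels. Compared per kilobase of gene length, *Ccnd1*, which encodes cyclin D1, had the highest level, with a mean of 335 CPM per kb over the 16 libraries. It was followed by 2 CDK inhibitors, *Cdkn1a* (p21) at 236 CPM per kb and *Cdkn2a* at 202 CPM per kb. The counts of *Cdkn2a* join its transcripts for p16INK4A and p19ARF, which share exons. The lowest levels were those of *Mybl2*, which encodes B-MYB, at 1.17 CPM per kb and of the cyclin E genes, with *Ccne1* at 2.29 and *Ccne2* at 2.43 CPM per kb. Replication genes ranged from 2.88 CPM per kb for *Tyms*, the thymidylate synthase gene, to 33.2 for *Pcna*, the sliding clamp of the replicative polymerases. Mitosis genes ranged from 2.29 CPM per kb for the checkpoint kinase gene *Bub1* to 16.3 for *Cdc20*, an activator of the anaphase-promoting complex. Mitotic cyclin and entry genes lay between 5.29 CPM per kb for *Cdk1* and 11.5 for *Ccnb2* (cyclin B2). The lowest count of any member in any library was 46, for *Ccne1*, and the highest was 38283, for *Ccnd1*.

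The first question was how these genes responded to 90 minutes of BMP9 in Ctrl cells. Few of them did, and by little. The replication genes *Rrm2* and *Mcm3* rose, to 1.30-fold and 1.18-fold, and the kinase gene *Cdk6* and the CDK inhibitor gene *Cdkn2b* fell, to 0.847-fold and 0.850-fold. These were 4 of the 42 members (9.52%), while 9.69% of all tested genes passed the same threshold (quasi-likelihood test of edgeR blocked on the isolation, adjusted p under 0.05). The 2 members that rose (4.76%) stood beside 5.86% of all genes called higher, and the 2 that fell beside 3.83% called lower, so the shares were close to those of all genes. DESeq2 with the same block also called 4 members. The median log2 fold change of the members was -0.018, beside -0.0051 for all tested genes.

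*Rrm2* (ENSMUSG00000020649, chromosome 12, 24758240 to 24764145, plus strand, GRCm39) encodes the small subunit of ribonucleotide reductase, which makes deoxyribonucleotides for DNA synthesis. In isolations 1 to 4 it lay at 32.9, 25.7, 72.8 and 81.6 CPM in Ctrl PBS and at 41.8, 34.2, 106 and 94.9 CPM in Ctrl sENG(M):BMP9. The 2 groups overlapped, because isolations 3 and 4 were high and isolations 1 and 2 low in both, but in each isolation the treated library was the higher one. Its log2 fold change was 0.38 (SE 0.0709, 95% interval 0.23 to 0.53, adjusted p = 0.00113), and the differences within single isolations were 0.35, 0.41, 0.54 and 0.22.

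*Mcm3* (ENSMUSG00000041859, chromosome 1, 20873192 to 20890536, minus strand) encodes a subunit of the MCM2-7 complex, the replicative helicase. It lay at 46.2, 44.1, 49.6 and 75.8 CPM in Ctrl PBS and at 57.2, 51.9, 59.8 and 82.9 CPM in Ctrl sENG(M):BMP9. Isolation 4 was the highest in both groups and the groups overlapped, with the treated library higher in all 4 isolations. The log2 fold change was 0.23 (SE 0.0532, adjusted p = 0.00612), and the adjusted p was 0.0536 when isolation 1 was left out.

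*Cdk6* (ENSMUSG00000040274, chromosome 5, 3391485 to 3581008, plus strand) encodes a kinase that acts with D-type cyclins in G1. Its values were 113, 100.4, 126 and 96.7 CPM in Ctrl PBS and 96.5, 77.7, 109 and 87.0 CPM in Ctrl sENG(M):BMP9. The treated library was lower in each isolation, and the groups overlapped across isolations. The log2 fold change was -0.24 (SE 0.046, 95% interval -0.34 to -0.14, adjusted p = 0.00139).

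*Cdkn2b* (ENSMUSG00000073802, chromosome 4, 89224536 to 89229276, minus strand) encodes p15INK4B, an inhibitor of CDK4 and CDK6. It lay at 113, 116, 111 and 79.9 CPM in Ctrl PBS and at 91.1, 97.4, 92.3 and 74.9 CPM in Ctrl sENG(M):BMP9. In isolations 1 to 3 every treated library lay below every untreated one, and isolation 4 was low in both groups. Its log2 fold change was -0.23 (SE 0.0472, 95% interval -0.33 to -0.13, adjusted p = 0.00215), and it was smallest in isolation 4, at -0.093. Both *Cdk6* and its inhibitor gene thus fell in the same cultures.

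The promoters of these 4 genes are printed to show which cell cycle and SMAD motifs lie at the genes that changed. They are RefSeq sequences of GRCm38.p6, an earlier build than the one the counts were aligned to, and run 5′ to 3′ on the strand of the gene from 250 bases before the start to 50 bases after it, 300 bases each. Capitals mark matches on either strand to 4 motifs. These are the E2F motif (TTTCCCGC, TTTCGCGC, TTTGCCGC or TTTGGCGC), the CHR element (TTTGAA) and CCAAT box (CCAAT) found at mitotic genes, and GGCGCC, a GC-rich element bound by SMAD1/5. The E2F form TTTGGCGC can overlap GGCGCC, and does so in *Mcm3*. The regions are chr12:24708004-24708303 on the plus strand for *Rrm2*, chr1:20820263-20820562 on the minus strand for *Mcm3*, chr5:3343643-3343942 on the plus strand for *Cdk6* and chr4:89310983-89311282 on the minus strand for *Cdkn2b*.
Rrm2: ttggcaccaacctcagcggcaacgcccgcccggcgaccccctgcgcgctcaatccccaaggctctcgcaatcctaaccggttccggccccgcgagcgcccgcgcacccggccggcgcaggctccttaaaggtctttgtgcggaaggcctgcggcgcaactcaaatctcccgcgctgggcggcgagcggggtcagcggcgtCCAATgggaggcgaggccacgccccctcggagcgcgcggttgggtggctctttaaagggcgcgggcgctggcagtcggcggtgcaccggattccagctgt
Mcm3: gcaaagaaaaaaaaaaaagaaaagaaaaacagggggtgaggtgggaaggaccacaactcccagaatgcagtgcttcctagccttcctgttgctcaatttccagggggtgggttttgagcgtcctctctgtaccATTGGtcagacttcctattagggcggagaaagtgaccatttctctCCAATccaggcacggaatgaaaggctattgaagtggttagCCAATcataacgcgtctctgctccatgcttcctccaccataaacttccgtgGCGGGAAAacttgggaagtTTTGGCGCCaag
Cdk6: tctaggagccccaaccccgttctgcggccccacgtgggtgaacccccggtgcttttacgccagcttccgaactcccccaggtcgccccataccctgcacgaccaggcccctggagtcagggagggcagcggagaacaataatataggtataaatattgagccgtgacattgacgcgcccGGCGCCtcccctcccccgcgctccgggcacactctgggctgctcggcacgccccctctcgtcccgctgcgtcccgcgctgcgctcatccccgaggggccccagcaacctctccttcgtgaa
Cdkn2b: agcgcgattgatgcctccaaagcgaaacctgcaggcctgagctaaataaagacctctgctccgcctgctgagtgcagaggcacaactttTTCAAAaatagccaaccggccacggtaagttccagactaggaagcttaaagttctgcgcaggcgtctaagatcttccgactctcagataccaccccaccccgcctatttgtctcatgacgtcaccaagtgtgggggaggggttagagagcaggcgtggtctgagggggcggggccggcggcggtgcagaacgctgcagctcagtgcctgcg

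*Mcm3* held 6 matches: 3 CCAAT, 2 E2F and 1 GGCGCC. *Rrm2* held 1 CCAAT, *Cdk6* held 1 GGCGCC and *Cdkn2b* held 1 CHR in reverse orientation. Of the 42 members, 33 had an entry in the promoter table. An E2F motif was in 7 of the 33 (21.2%), namely *Cdk1*, *Cdk2*, *Cdkn2a*, *Mcm3*, *Mcm5*, *Mcm6* and *Mcm7*, and in 2.6% of the 27025 genes of the table, where a gene counts if any of its promoters holds the motif. CCAAT was in 24 of the 33 (72.7%, against 41.1% of all genes), CHR in 11 (33.3% against 20.2%) and GGCGCC in 11 (33.3% against 13.4%). Counted by promoter, the 4 motifs were in 2.26% (E2F), 37.4% (CCAAT), 17.9% (CHR) and 11.9% (GGCGCC) of 32851 promoters. A match says only that these letters lie in the window. The other 9 members, *Aurkb*, *Ccna2*, *Ccnd1*, *Ccnd2*, *Ccne2*, *Cdkn1c*, *Foxm1*, *Mcm4* and *Myc*, are not among these 33.

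The other 38 members did not pass the threshold in Ctrl cells. *Myc*, the immediate target of mitogens that encodes a growth-promoting transcription factor, came nearest. It lay at 116.8, 136, 81.7 and 84.7 CPM in Ctrl PBS and at 102, 114, 76.0 and 84.0 CPM with sENG(M):BMP9. Isolations 1 and 2 were high in both groups, the libraries of isolation 4 lay close together, and the log2 fold change was -0.14 (SE 0.048, adjusted p = 0.0717). When isolation 4 was left out the adjusted p of *Myc* was 0.0159.

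*Ccnd1* had values of 1226, 1279, 1900.1 and 1472 CPM in Ctrl PBS and 1314, 1340.0, 2008 and 1640 CPM with sENG(M):BMP9. It was higher with ligand in all 4 isolations, but by only 0.10 on the log2 scale (adjusted p = 0.226). In an alternative with no filter on low counts, *Ccnd1* was called. In the main test 7 members had an unadjusted p under 0.05, namely the 4 called there and *Myc*, *Ccnd1* and *Ccne2*.

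The responses in Ctrl cells are best described by their bounds. Over the 42 members the log2 fold changes ran from -0.24 (*Cdk6*) to 0.38 (*Rrm2*), and the 95% intervals from -0.35 (*Ccne1*) to 0.56 (*Ccne2*). The interval of 28 members lay wholly within ±0.25 on the log2 scale and that of 40 members within ±0.5. By role, 8 of the 9 replication genes had a positive log2 fold change, with a median of 0.072, and 1 of the 6 CDK inhibitor genes did, with a median of -0.031. None of the 4 transcription factor genes (*Myc*, *E2f1*, *Foxm1* and *Mybl2*) had a positive value, against 3 of the 9 mitosis genes and 48.1% of all tested genes. Apart from the 4 genes named above, no member of these groups passed the test, and the signs of 4 to 7 members changed when 1 isolation was left out.

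**Figure D1:**
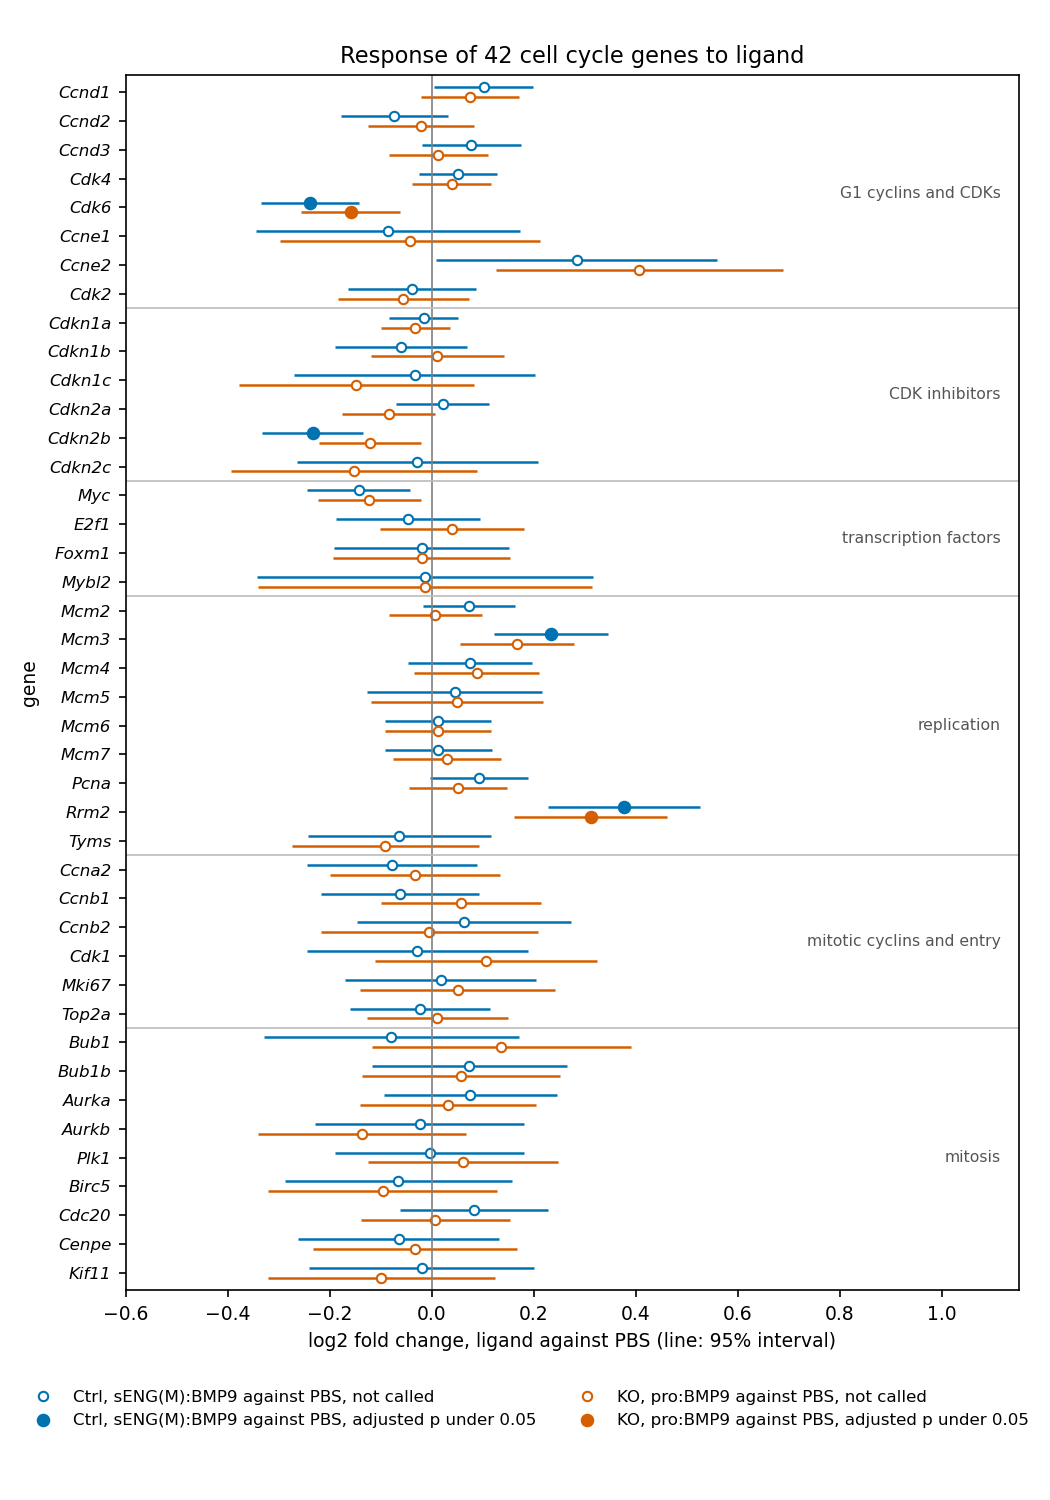
Log2 fold change of each of the 42 members after 90 minutes of ligand, with 95% intervals, with Ctrl cells in blue, KO cells in orange, filled points for called genes and the members ordered by role. Most intervals cross 0, and the values in Ctrl cells lie between -0.24 for *Cdk6* and 0.38 for *Rrm2*.

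In KO cells, pro:BMP9 gave the same kind of picture, with *Rrm2* raised to 1.24-fold and *Cdk6* lowered to 0.896-fold. These were 2 of the 42 members (4.76%), beside 5.59% of all tested genes (3.68% higher and 1.92% lower, against 1 member each way). DESeq2 called 2 members as well, and 6 members had an unadjusted p under 0.05. *Rrm2* lay at 28.9, 25.8, 89.9 and 73.2 CPM in KO PBS and at 33.9, 35.4, 105 and 93.1 CPM in KO pro:BMP9. It was higher with ligand in each isolation, and isolations 3 and 4 were again far above isolations 1 and 2 in both groups. The log2 fold change was 0.31 (SE 0.0712, 95% interval 0.16 to 0.46, adjusted p = 0.00973). It missed the threshold when isolation 2 (adjusted p = 0.11) or isolation 4 (adjusted p = 0.0607) was left out.

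*Cdk6* lay at 115, 94.2, 135 and 97.5 CPM in KO PBS and at 94.6, 87.9, 125 and 88.0 CPM in KO pro:BMP9. The treated library was the lower one in all 4 isolations, and the groups overlapped. The log2 fold change was -0.16 (SE 0.0459, 95% interval -0.26 to -0.06, adjusted p = 0.0495), which is just inside the threshold, and it missed it whichever isolation was left out (adjusted p 0.0739 to 0.354).

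*Mcm3* and *Cdkn2b* were not called in KO cells. For *Mcm3* the values were 42.6, 48.9, 50.1 and 73.0 CPM in KO PBS and 53.1, 54.6, 52.9 and 79.4 CPM with pro:BMP9, which is 0.17 on the log2 scale (adjusted p = 0.0908). *Cdkn2b* lay at 103, 109.6, 103 and 87.3 CPM in KO PBS and at 98.7, 100.5, 89.2 and 82.0 CPM with pro:BMP9, which is -0.12 on the log2 scale (adjusted p = 0.203). In both genes all 4 isolations showed the direction seen in Ctrl cells, and the groups overlapped.

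*Ccne2*, which encodes cyclin E2, had the highest log2 fold change in KO cells. Its levels were low, at 4.82, 3.40, 9.20 and 11.0 CPM in KO PBS and 5.18, 5.04, 12.002 and 15.7 CPM with pro:BMP9, and every isolation was higher with ligand. The log2 fold change of 0.41 had an SE of 0.134 and an adjusted p of 0.101. *Myc*, at 129, 134, 86.9 and 85.5 CPM in KO PBS and 109, 121, 78.0 and 88.9 CPM with pro:BMP9, differed by -0.12 on the log2 scale (adjusted p = 0.203). Isolation 4 was the only one in which *Myc* was higher with ligand, and without it the adjusted p was 0.0313.

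Across the 42 members in KO cells the log2 fold changes ran from -0.16 (*Cdk6*) to 0.41 (*Ccne2*) with a median of 0.0085, beside 0.00042 for all tested genes. The 95% intervals reached from -0.39 (*Cdkn2c*, the gene of p18INK4C) to 0.69 (*Ccne2*), and 27 of them lay within ±0.25 and 41 within ±0.5. Again 8 of the 9 replication genes and 1 of the 6 CDK inhibitor genes had positive values, as did 5 of the 9 mitosis genes, and 3 to 6 members changed sign when 1 isolation was left out.

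**Figure D2:**
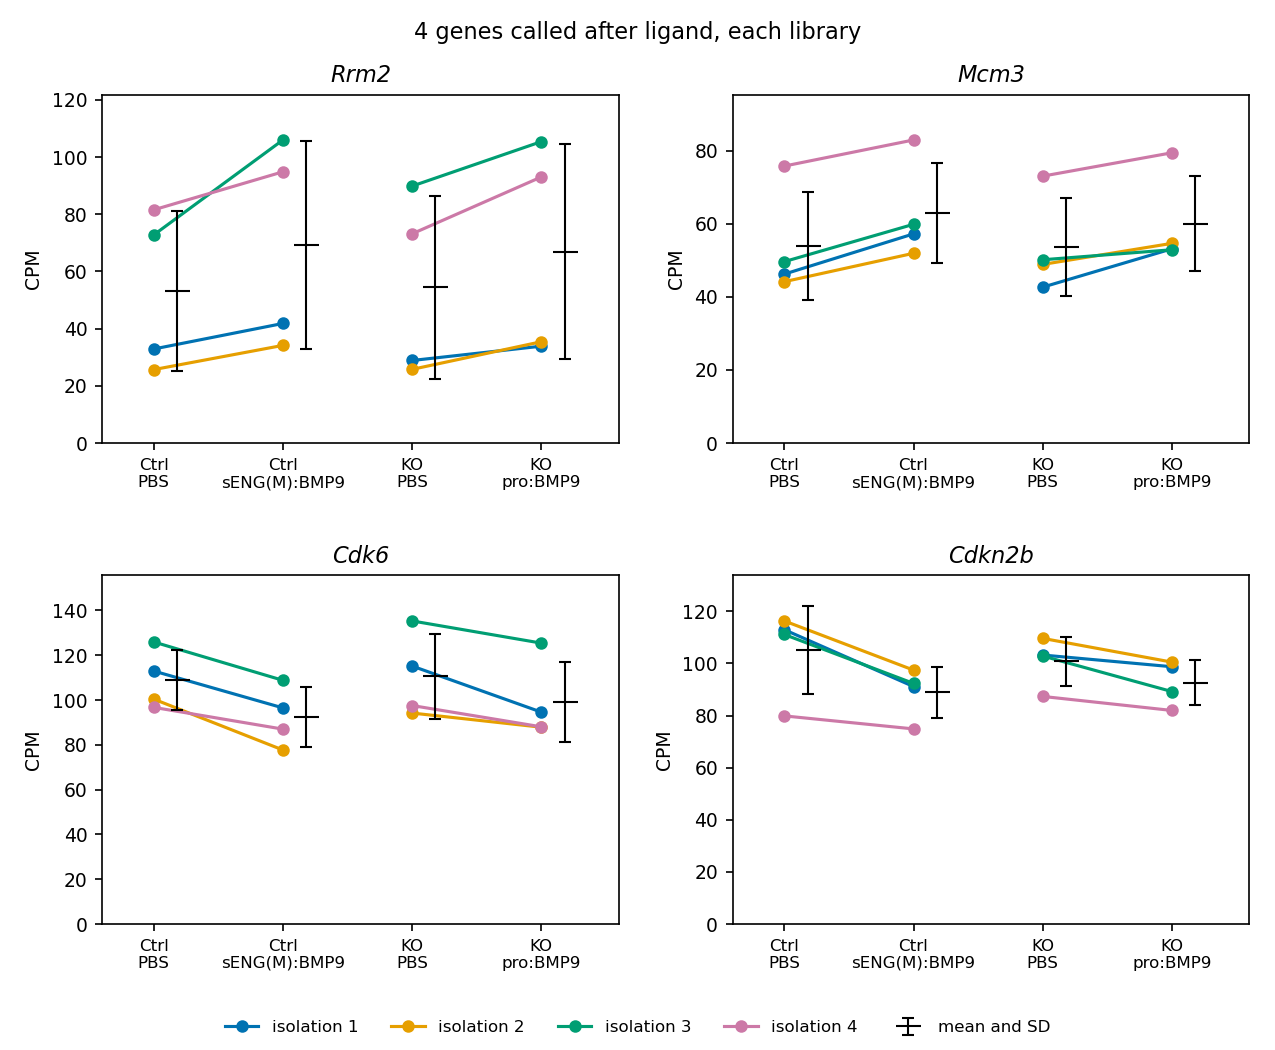
CPM of the 4 members that passed the test after ligand, in every library, with 1 line for each isolation joining its PBS and its ligand library in Ctrl and in KO cells, and black bars for the mean and SD of each group. *Rrm2* and *Mcm3* are higher and *Cdk6* and *Cdkn2b* lower with ligand in all 4 isolations, while the lines of different isolations lie far apart.

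Whether the responses differed between Ctrl and KO cells was tested as the difference of both log2 fold changes, KO minus Ctrl. No member passed, and none had an unadjusted p under 0.05. Among all tested genes 0 were called (0%), by edgeR or DESeq2, and 565 had an unadjusted p under 0.05. The difference was -0.066 for *Rrm2* (95% interval -0.28 to 0.15), -0.067 for *Mcm3* (-0.23 to 0.092), 0.080 for *Cdk6* (-0.057 to 0.22) and 0.11 for *Cdkn2b* (-0.028 to 0.25). Over the members the point values ran from -0.12 (*Cdkn2c*) to 0.22 (*Bub1*). That of *Bub1* rested on isolation 3 (0.84), against -0.0015, -0.033 and 0.0080 in isolations 1, 2 and 4. For *Cdkn2c*, isolation 3 had the opposite sign (0.30), against -0.37, -0.49 and -0.055 in isolations 1, 2 and 4. The intervals reached from -0.47 (*Mybl2*) to 0.57 (*Bub1*), and 18 of them lay within ±0.25 and 40 within ±0.5. A call of *Mcm3* and *Cdkn2b* in Ctrl cells alone therefore does not show that their responses differed between genotypes.

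The next question was whether loss of *Eng* without ligand changed the cell cycle genes. No member was called between KO PBS and Ctrl PBS cells, where 0.0191% of all tested genes (3 genes) passed the test. DESeq2 called 0 members too. The lowest adjusted p was that of *Ccnd3*, the gene of cyclin D3, which lay at 105, 101, 131 and 132 CPM in Ctrl PBS and at 118, 121, 148 and 136 CPM in KO PBS. Each KO library lay above the Ctrl library of its isolation, the groups overlapped, and the log2 fold change was 0.16 (unadjusted p = 0.00316, adjusted p = 0.417).

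*Cdkn1c*, which encodes p57, was the only other member with an unadjusted p under 0.05 in PBS (log2 fold change 0.26, unadjusted p = 0.0318, adjusted p = 0.688). The proliferation marker gene *Mki67* had the lowest log2 fold change, -0.16. It lay at 92.4, 85.3, 48.4 and 89.8 CPM in Ctrl PBS and at 81.1, 71.2, 53.9 and 72.1 CPM in KO PBS. Isolation 3 was low in both groups and was the one isolation in which the KO library was the higher one. The 95% intervals of the 42 members lay between -0.44 (*Ccne2*) and 0.49 (*Cdkn1c*), so all were within ±0.5, and 28 were within ±0.25.

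With ligand, KO and Ctrl cells also showed 0 called members, beside 0.255% of all tested genes (40 genes, 0.0892% higher and 0.166% lower), and DESeq2 again called 0 members. The log2 fold changes lay between -0.16 (*Cdkn2c*) and 0.15 (*Ccne1*), and the 95% intervals between -0.40 and 0.41. *Cdk2*, the partner kinase of cyclin E, was the only member with an unadjusted p under 0.05 (log2 fold change -0.13, unadjusted p = 0.0484, adjusted p = 0.538). Since the comparisons within and between genotypes use the same libraries, their values for a gene are not independent.

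**Figure D3:**
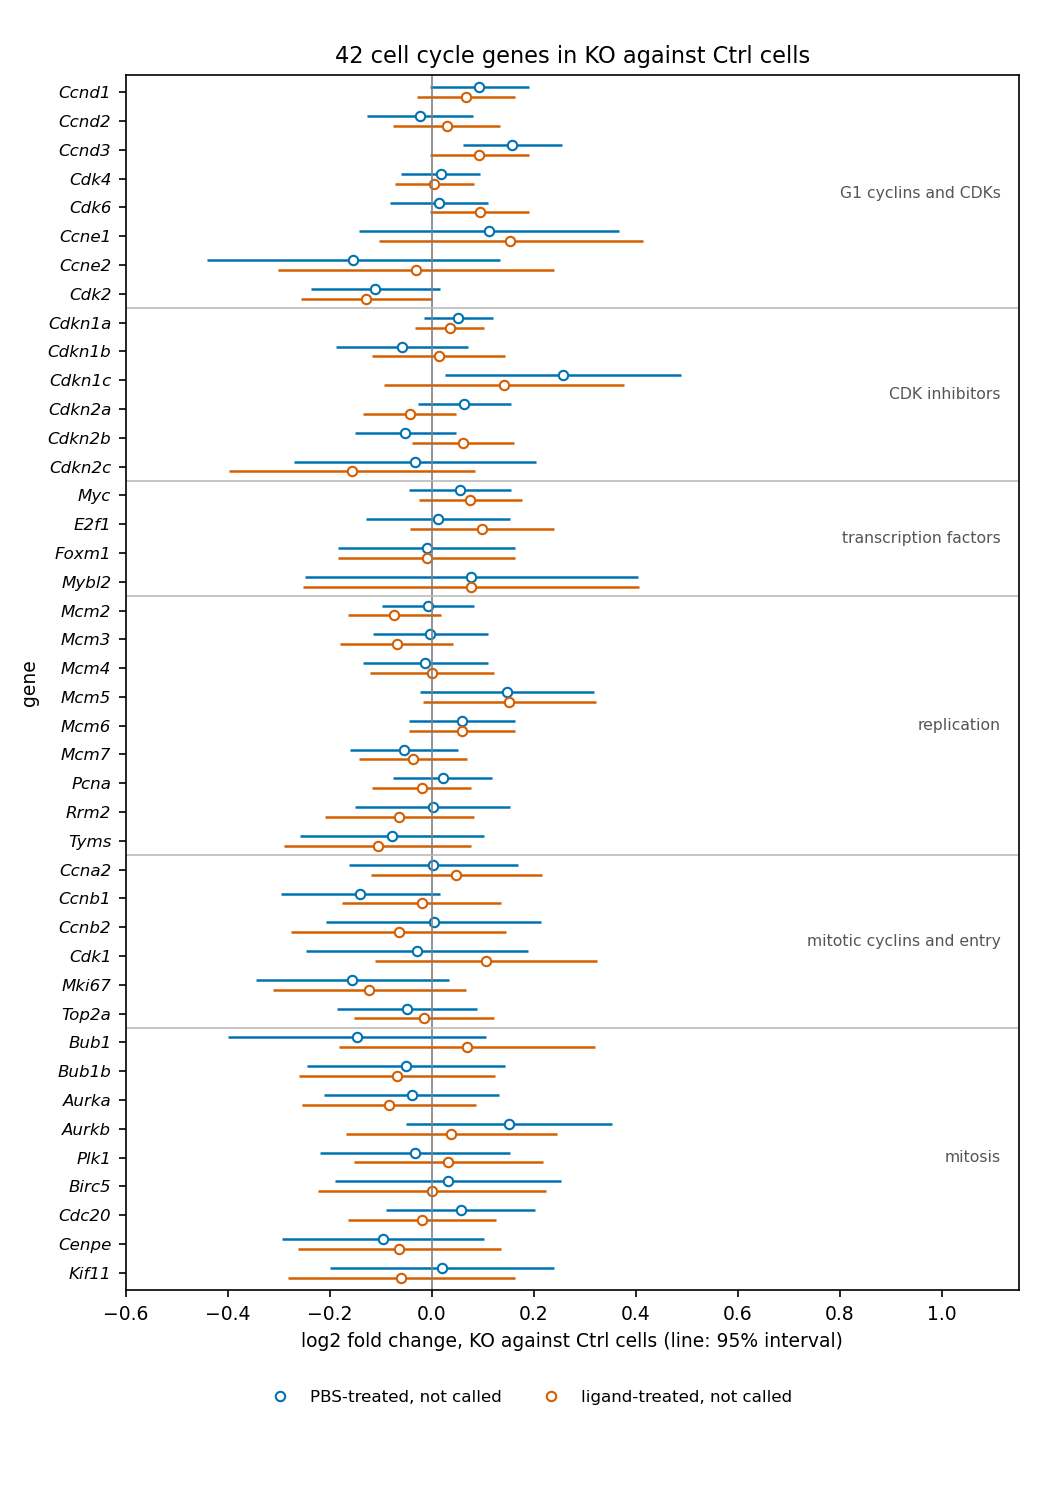
Log2 fold change of each of the 42 members between KO and Ctrl cells, with 95% intervals, in PBS and with ligand. All 42 intervals lie within ±0.5 in both comparisons, and no member passed the test.

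Genes around these members in the cell cycle were read from lists written for this work. The lists were chosen with earlier results of these data known, so their shares beside all genes are descriptive and were not tested. Of 51 other S phase genes, 2 rose in Ctrl cells and 1 in KO cells, and none fell (3.92% and 1.96%, beside 9.69% and 5.59% of all tested genes). *Cdt1*, which loads the MCM helicase at origins, rose from a mean of 32.6 to 51.9 CPM in Ctrl cells (log2 fold change 0.68, SE 0.0735, adjusted p = 2.55e-06) and from 34.4 to 50.9 CPM in KO cells (0.57, adjusted p = 3.56e-05). *Blm*, a DNA helicase gene, was the other one in Ctrl cells (0.40, adjusted p = 0.0159), and its value in KO cells was 0.016 (adjusted p = 0.984).

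Of 60 other G2 and M phase genes, 1 rose in Ctrl cells and 2 in KO cells, and none fell (1.67% and 3.33%, beside 9.69% and 5.59% of all tested genes). *Cks2*, which encodes a small CDK-binding subunit, rose in both genotypes, from 18.1 to 28.9 CPM in Ctrl cells (log2 fold change 0.65, adjusted p = 1.16e-04) and from 17.6 to 27.9 CPM in KO cells (0.66, adjusted p = 1.9e-04). The centromeric histone gene *Cenpa* was called in KO cells (0.30, adjusted p = 0.0311) and had a value of -0.013 in Ctrl cells.

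Among 18 genes of RB, the E2F family and the DREAM complex, 4 rose and 1 fell in Ctrl cells, and 2 rose and 1 fell in KO cells (27.8% and 16.7%, beside 9.69% and 5.59% of all tested genes). *E2f8*, an atypical E2F that represses transcription, fell from 38.3 to 22.6 CPM in Ctrl cells (log2 fold change -0.76, SE 0.0718, adjusted p = 5.26e-07) and from 38.6 to 27.9 CPM in KO cells (-0.47, adjusted p = 2.31e-04). *E2f4*, which acts mainly as a repressor with the RB relatives p107 and p130, rose (0.32 in Ctrl, adjusted p = 4.08e-04; 0.20 in KO, adjusted p = 0.0405). In Ctrl cells the atypical *E2f7* also rose, by 0.38 (adjusted p = 0.0389), as did *Lin9*, a MuvB subunit, by 0.39 (adjusted p = 0.00699). None of 13 other regulators of G1 was called in either genotype by edgeR, and none had an unadjusted p under 0.05.

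Of 29 genes of p53 and its targets, 2 rose and 6 fell in Ctrl cells, and 2 rose and 4 fell in KO cells (27.6% and 20.7%, beside 9.69% and 5.59% of all tested genes). *Bbc3*, the gene of the pro-apoptotic protein PUMA, fell by 0.65 on the log2 scale in Ctrl cells (adjusted p = 3.24e-07) and by 0.53 in KO cells (adjusted p = 6.51e-06). The polo-like kinase genes *Plk2* and *Plk3* fell by 0.58 and 0.32 in Ctrl cells and by 0.56 and 0.31 in KO cells. *Pmaip1*, the gene of the pro-apoptotic protein NOXA, rose by 0.41 (adjusted p = 1.55e-04) and 0.30 (adjusted p = 0.00411). *Phlda3* was called higher in Ctrl cells (0.19, adjusted p = 0.0155) and *Trp53inp1* in KO cells (0.14, adjusted p = 0.0192). *Cdkn1a*, the member best known as a p53 target, lay between 783 and 900.1 CPM in the 8 Ctrl libraries and between 803 and 924 CPM in the 8 KO libraries, and was not called. After quantile normalisation, ComBat and DESeq2 it was among the 6 members called in Ctrl cells.

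Of the genes named from these lists, *Blm* (highest adjusted p 0.124), *Lin9* (0.109), *E2f7* (0.219) and *Phlda3* (0.134) missed the threshold in Ctrl cells when at least 1 isolation was left out. *Cenpa* (0.19), *E2f4* (0.281) and *Trp53inp1* (0.141) did so in KO cells. No gene of these lists was called between KO and Ctrl cells in PBS or in the difference of responses, where 0.0191% and 0% of all genes were called.

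The isolations differed far more than the groups did. All 42 members differed between the 4 isolations, with adjusted p from 1.43e-13 (*Rrm2*) to 0.00456 (*Tyms*), beside 69.7% of all tested genes. Each isolation supplied 4 libraries from the same cells, so the test compares these 4 cell isolations and no condition. The ratio of the highest to the lowest isolation mean had a median of 1.61 over the members and of 1.37 over all tested genes. The same ratio between group means had a median of 1.08 over the members and of 1.13 over all genes. The isolation ratio was the larger one for 42 of 42 members and for 84.9% of all genes.

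**Figure D4:**
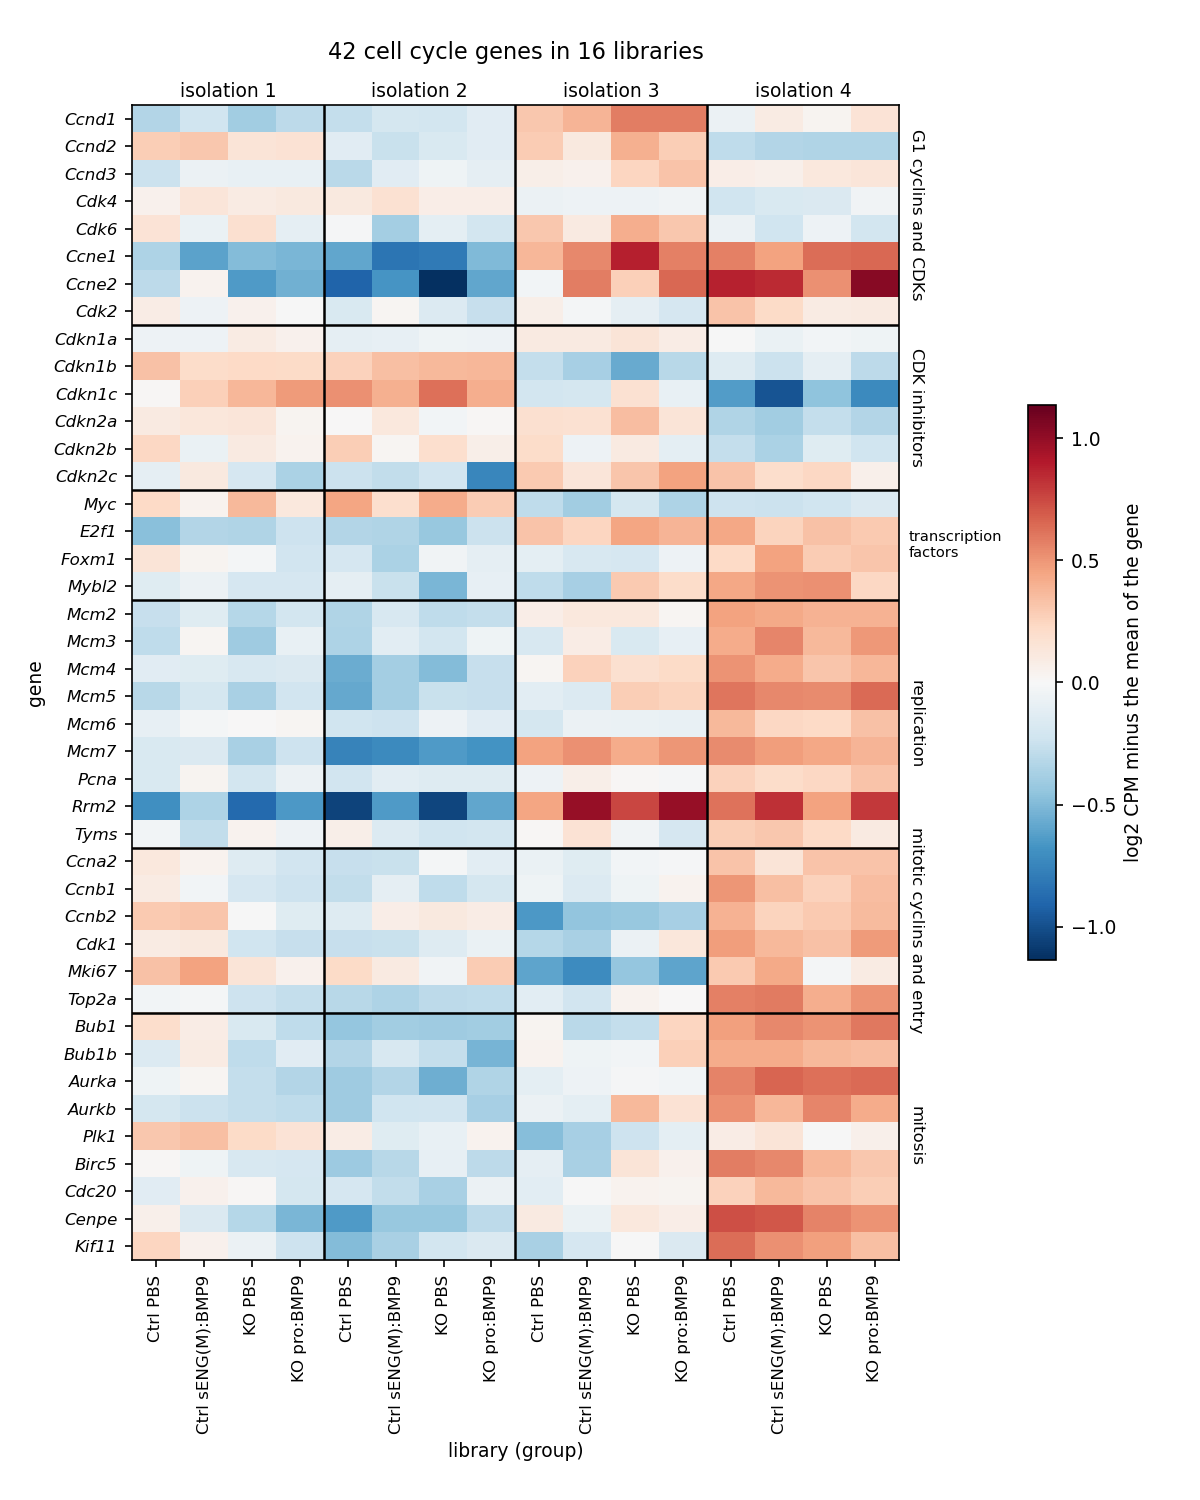
Log2 CPM of the 42 members in the 16 libraries, each gene centred on its mean, with genes in rows ordered by role and libraries in columns ordered by isolation and then by group. The colours change between isolations and hardly within them, and isolation 4 is high for most replication and mitosis genes.

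*Ccne2* had the largest ratio, 3.17, with isolation means of 6.004, 4.30, 10.02 and 13.6 CPM (isolations 1 to 4). *Rrm2* followed with 3.09 and means of 34.4 ± 5.42, 30.3 ± 5.26, 93.5 ± 15.7 and 85.7 ± 10.2 CPM (SD, n = 4 libraries). *Ccne1*, which encodes cyclin E1, had a ratio of 2.48, and its values of isolations 3 and 4 (7.26 to 10.4 CPM) all lay above those of isolations 1 and 2 (3.08 to 4.35 CPM).

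The smallest ratio was that of *Cdkn1a*, 1.14, with isolation means between 795 and 903 CPM. *Cdk4*, the partner kinase of D-type cyclins, had means of 270, 271, 243 and 227 CPM. *Ccnd3* had means of 115, 113, 141 and 134 CPM. Even for these 3 genes the 4 libraries of the highest isolation lay above the 4 of the lowest, as they did for 42 of 42 members and for 66.8% of all tested genes.

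Isolation 4 had the highest mean for 24 of the 42 members (57.1%, against 26.1% of all tested genes). Against the mean of the other 3 isolations, 31 members were called higher in isolation 4, where 25.6% of all genes were, and 8 were called lower, where 23.6% were. All 9 replication genes, all 6 mitotic cyclin and entry genes and 8 of the 9 mitosis genes were called higher, the exception being the polo-like kinase gene *Plk1*. The median log2 difference was 0.56, 0.46 and 0.63 in these roles. CDK inhibitors went the other way, with 1 higher and 4 lower and a median of -0.30.

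For 20 members (47.6%) all 4 libraries of isolation 4 lay above the other 12, which was so for 5.48% of all tested genes. They were the helicase genes *Mcm2* to *Mcm6*, *Pcna*, *Cdk2*, *Foxm1*, *Ccna2*, *Ccnb1*, *Cdk1* and *Top2a*, and the mitosis genes *Bub1*, *Bub1b*, *Aurka*, *Aurkb*, *Birc5*, *Cdc20*, *Cenpe* and *Kif11*. *Top2a*, the gene of DNA topoisomerase IIα, had isolation means of 70.0 ± 6.46, 61.9 ± 1.12, 73.3 ± 5.92 and 111 ± 6.11 CPM. *Pcna* lay at 91.2 to 99.0 CPM in isolation 4 and at 67.9 to 82.9 CPM in the other 12 libraries, and *Cdc20* at 36.1 to 38.9 against 23.3 to 31.1 CPM. *Aurka*, the gene of the centrosomal kinase Aurora A, had means of 13.0, 10.9, 14.0 and 22.4 CPM. Read over the 9 mitosis genes together, the summed level of every isolation 4 library (215 to 232 CPM) lay above that of every other library (127 to 170 CPM).

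**Figure D5:**
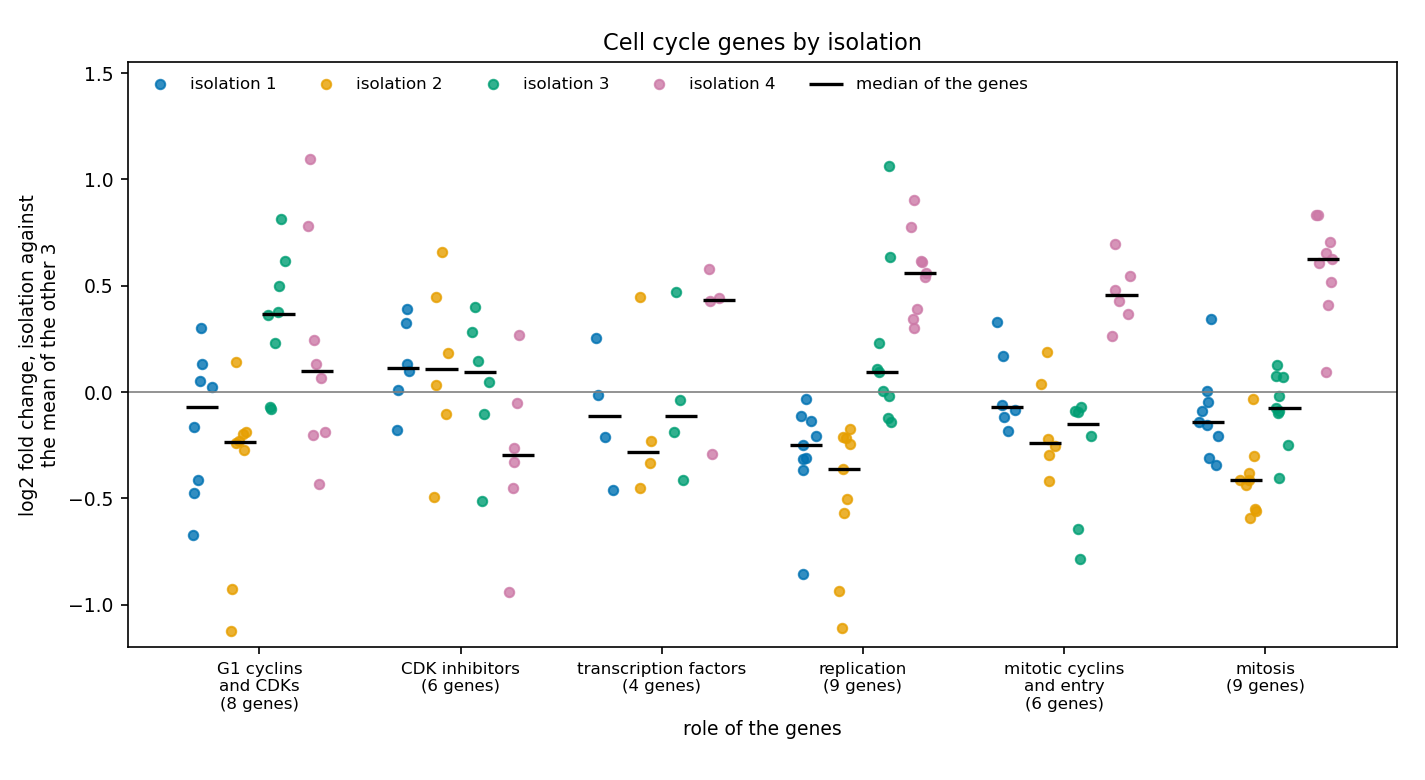
Log2 difference of each isolation from the mean of the other 3, with 1 point for each member, members grouped by role on the x axis and a black bar for the median of the role. The points of isolation 4 all lie above 0 for replication genes, mitotic cyclin and entry genes and mitosis genes, with medians of 0.56, 0.46 and 0.63, while those of CDK inhibitors have a median of -0.30.

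Isolation 3 had a different profile. Against the other isolations 14 members were called higher in it, where 26.3% of all genes were, and 9 lower, where 23.8% were. It was high for G1 genes, with a summed level of 3033 to 3511 CPM against 2228 to 2625 CPM in the other 12 libraries, most of which was *Ccnd1*, at a mean of 2128 CPM there and of 1242, 1340 and 1599 CPM in isolations 1, 2 and 4. *Rrm2* and *Ccne1* were high in it as well, with log2 differences of 1.06 and 0.82 from the other isolations. In contrast, its mean for *Mki67* was 48.8 CPM, while isolations 1, 2 and 4 had 87.4, 81.1 and 84.6 CPM. *Ccnb2* (log2 difference -0.64) and *Plk1* (-0.40) were also lower there.

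*Ccnb2*, the mitotic cyclin gene with the highest level per length, lay at 10.9, 12.6, 12.7 and 13.2 CPM in the 4 libraries of isolation 3. In the other 12 libraries it lay between 15.4 and 22.5 CPM, so the 2 sets did not overlap.

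Isolation 2 had the lowest mean for 29 members (69%, against 30.8% of all tested genes), and 32 members were called lower in it, where 27.5% of all genes were. Called higher in it were 6 members, beside 25.3% of all genes. For 4 members (9.52%), *Mcm4*, *Mcm7*, *Top2a* and *Bub1*, the 4 libraries of isolation 2 lay below the other 12, beside 5.51% of all genes. In isolation 1, 9 members were called higher (22.2% of all genes) and 16 lower (20% of all genes). In isolation 2, *Ccne2* and *Rrm2* were lower by 1.12 and 1.11 on the log2 scale. Of the 6 members called higher in it, 3 were the inhibitor genes *Cdkn1c* (0.66), *Cdkn1b* (0.45) and *Cdkn2b* (0.18), the first 2 encoding p57 and p27. The other 3 were *Myc* (0.45), the proliferation marker gene *Mki67* (0.19) and *Cdk4* (0.14).

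Some members separated isolations 3 and 4 from isolations 1 and 2. In 10 members (23.8%) all 8 libraries of isolations 3 and 4 lay above the other 8, beside 10.9% of all tested genes. They were *Ccnd1*, *Ccnd3*, *Ccne1*, *E2f1*, *Mcm2*, *Mcm4*, *Mcm5*, *Mcm7*, *Rrm2* and the mitotic kinase gene *Aurkb*. *E2f1*, the activator of replication genes, lay between 17.2 and 20.2 CPM in the libraries of isolations 1 and 2 and between 28.3 and 32.6 CPM in those of isolations 3 and 4. The reverse held for 3 members (7.14%, beside 11.1% of all genes): *Cdk4*, *Cdkn1b* and *Myc*. *Myc* had isolation means of 114 ± 11.4, 126 ± 10.5, 80.6 ± 4.78 and 85.8 ± 2.18 CPM.

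Markers of other cell types moved with the isolations too. The summed level of 12 endothelial markers lay at 5910 to 6700, 7790 to 7880, 3590 to 3890 and 5470 to 5810 CPM in isolations 1 to 4. For 7 fibroblast markers it was 491 to 583, 81.3 to 90.9, 561 to 658 and 349 to 547 CPM, and for 7 mural cell markers 180 to 280, 56.5 to 67.1, 329 to 352 and 205 to 247 CPM. Isolation 2, lowest for most members, was the highest in endothelial and the lowest in fibroblast and mural markers, whereas isolation 4, highest for replication and mitosis genes, lay between isolations 2 and 3 in all 3 lists. For 6 epithelial markers, nearly all of it the keratin genes *Krt8* and *Krt18*, the sum was 124 to 151, 161 to 180, 61.7 to 82.1 and 49.5 to 60 CPM. Of the leukocyte genes, *Cd14* had isolation means of 51, 81.7, 25.8 and 14.4 CPM and *Cd68* of 30.4, 38.7, 32.7 and 34.8 CPM. In the blocked test some of these markers also differed between groups: *Dcn* between KO and Ctrl cells in PBS (adjusted p = 0.016), and *Kdr* (0.000103), *Cd14* (0.00273) and *Pecam1* (0.0314) after ligand in Ctrl cells. The part of these markers in the differences between isolations and groups was not tested.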

How the data were processed

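The deposited table holds raw read counts per gene, which the authors had made from stranded poly-A libraries with HISAT2 2.0.5 and featureCounts 1.5.0-p3 on GRCm39. The annotation release is not given in the sources used here. The authors' later steps (quantile normalisation, ComBat, DESeq2 1.26.0) are not in the counts. All 16 libraries were used and grouped by their labels. Low counts were removed with filterByExpr using the groups (minimum count 10, minimum total 15), and TMM factors were applied. A quasi-likelihood model with the isolation as a block was fitted in R 4.3.3 with edgeR 4.0.16 over all libraries, and p-values were adjusted over the 15693 genes tested (Benjamini-Hochberg, threshold 0.05). CPM carry no prior count, and a prior count of 2 enters the differences within single isolations. The replicate number is the isolation: deviations of same-numbered libraries from their group means had a mean correlation of 0.757 (24 pairs, lowest 0.67). No pair of libraries agreed within sampling noise. The code was also run on simulated counts drawn from the fitted dispersions, which does not test how well the model suits these data.

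Values by library, or their ranges, were given for members that passed a test, for the highest member per length in each role and for the 3 members with the largest and the 3 with the smallest isolation ratio. Group means or fold changes were given for up to 3 called genes per direction of the other lists. Marker genes and *Mki67*, *Top2a*, *Aurka*, *E2f1* and *Cdkn1c* were named after their values were seen. The members and lists were chosen with earlier results of these data known. Alternatives used DESeq2 1.42.0, limma 3.58.1 and sva 3.50.0. In a GENCODE annotation of GRCm39, *Foxm1* overlaps a protein-coding gene on its own strand, so its counts are less certain.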

Additional observations from a re-analysis of the deposited data

Results flagged for a closer look

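In 6 of the 168 member and group combinations, 1 of the 4 libraries lay farther from the others than Dixon's 95% critical value allows, which chance gives in about 1 of 20 groups of 4. The single library was low for *Cdkn2a* in Ctrl sENG(M):BMP9 (isolation 4, 178 CPM, nearest library 254 CPM), for *Cdkn2b* in Ctrl PBS (isolation 4, 79.9 CPM, nearest 111 CPM) and for *Mki67* in Ctrl PBS (isolation 3, 48.4 CPM, nearest 85.3 CPM). It was high for *Mcm3* in KO pro:BMP9 (isolation 4, 79.4 CPM, nearest 54.6 CPM), for *Cdc20* in Ctrl PBS (isolation 4, 36.1 CPM, nearest 27.7 CPM) and for *Kif11*, a mitotic kinesin gene, in KO pro:BMP9 (isolation 4, 23 CPM, nearest 16.2 CPM). Isolation 4 was the one set apart in 5 of the 6.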

How the results depend on the processing

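Without the replicate block 0 members were called after ligand in Ctrl or KO cells, and 167 and 91 of all genes. Leaving out 1 isolation gave 3 to 5 members in Ctrl cells and 0 to 1 in KO cells: 0 without isolation 2 and 1 without isolation 1, 3 or 4. A run of quantile normalisation, ComBat and DESeq2, modelled on the steps the authors name, gave 6 members after ligand in Ctrl cells (*Cdk6*, *Cdkn1a*, *Cdkn2b*, *Mcm3*, *Myc* and *Rrm2*). It gave 6 in KO cells (1406 genes) and 1 between KO and Ctrl cells in PBS, *Ccnd3* (176 genes). The paper named only 3 genes as lower in PBS-treated KO cells (*Col3a1*, *Elovl6* and *Reln*), so this run did not reproduce its result. The main test also called 3 genes lower there, but not the same set, since *Dcn* was among them (edgeR adjusted p = 0.016). With no filter on low counts, 204 genes were called between KO and Ctrl cells in PBS, 517 with ligand and 52 in the difference, but 0 members in each. DESeq2 called 7 genes between KO and Ctrl cells in PBS and 141 with ligand. Leaving out 1 isolation changed the sign of 4 to 7 members after ligand in Ctrl cells, 3 to 6 in KO cells, 4 to 11 between KO and Ctrl cells in PBS, 4 to 9 with ligand and 6 to 10 in the difference. Fold changes of single genes were followed only for the 4 called members, *Myc*, *Ccne2*, *Eng* and the genes named from the other lists. Among these, directions reversed for the difference of responses of *Rrm2* (-0.15 to 0.034), for *Blm* in KO cells (-0.075 to 0.12), and in Ctrl cells for *Cenpa* (-0.060 to 0.040) and *Fosb* (-0.24 to 0.054). *Ccne2* in KO cells was called with no filter (adjusted p = 0.024), with the 8 libraries of the comparison alone (0.0339) and in the quantile, ComBat and DESeq2 run (0.0225). *Myc* was called in that run in both genotypes (0.00141 and 0.0079). The cause was not tested. All 42 members differed between isolations under every alternative except a fit of the 8 PBS libraries, which gave 41. The largest standard error after ligand in Ctrl cells was that of *Mybl2*, which had 56 to 132 counts per library.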

Other observations

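The lists of this section, too, were chosen with earlier results of these data known, and their shares were not tested. Of 13 immediate early genes, 3 rose and 4 fell in Ctrl cells, and 4 rose and 2 fell in KO cells (53.8% and 46.2%, beside 9.69% and 5.59% of all tested genes). *Junb*, a subunit of the AP-1 transcription factor, rose by 0.97 on the log2 scale in Ctrl cells (160 to 314 CPM, adjusted p = 9.46e-10) and by 0.81 in KO cells (adjusted p = 1.94e-08). *Egr2* rose by 0.79 and 0.63, but missed the threshold in Ctrl cells without isolation 3 (adjusted p = 0.104) and in KO cells without any 1 isolation (highest adjusted p 0.27). *Fosb* was called in KO cells (0.80, adjusted p = 0.00267) and had -0.056 in Ctrl cells, with group means of 2.96 to 5.12 CPM, and the difference of responses did not pass for any gene. *Egr1* fell by 0.59 and 0.44, and in KO cells the highest adjusted p without 1 isolation was 0.0597. *Ier3* fell by 0.27 and 0.41 (highest adjusted p in Ctrl cells without 1 isolation, 0.166). *Atf3* fell by 0.29 in Ctrl cells (highest adjusted p without 1 isolation, 0.107).

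Of 13 genes linked to quiescence, 2 rose and 3 fell in each genotype (38.5%, beside 9.69% of all tested genes in Ctrl cells and 5.59% in KO cells). *Pdk4*, which limits pyruvate oxidation, rose by 1.08 in Ctrl and 1.10 in KO cells (adjusted p = 4.33e-08 and 6.62e-08), and *Foxo1* by 0.45 and 0.42. *Cited2*, a transcriptional co-regulator gene, fell by 0.85 and 0.78 (adjusted p = 6.34e-07 and 3.16e-06), *Txnip* by 0.47 and 0.33, and *Tob1*, an antiproliferative gene, by 0.27 and 0.28. *Txnip* was the 1 gene of the list called between KO and Ctrl cells with ligand. In the MYC network, 21 of 22 listed genes were tested, of which 1 rose and 4 fell in Ctrl cells and 2 fell in KO cells (23.8% and 9.52%, beside 9.69% and 5.59% of all tested genes). *Mycn* fell from 6.86 ± 0.603 to 1.62 ± 1.64 CPM (SD, n = 4) in Ctrl cells (log2 fold change -2.13, edgeR adjusted p = 9.21e-05, and -3.10 without isolation 4) and from 7.87 to 3.24 CPM in KO cells (-1.30, adjusted p = 0.0055, and 0.0613 without isolation 2). The MAX partner genes *Mxd1* and *Mnt* fell by 0.58 and 0.29 in Ctrl cells, and *Mxi1* rose by 0.35 (highest adjusted p without 1 isolation, 0.109). In KO cells *Mnt* fell by 0.21 (highest adjusted p without 1 isolation, 0.209), and *Mxd1* had -0.26 (adjusted p = 0.071).

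The other phase genes followed the order of isolations seen in the members. Isolation 4 had the highest mean for 45 of 51 other S phase genes and for 52 of 60 other G2 and M phase genes, against 26.1% of all tested genes. Called higher in isolation 4 were 45 and 54 of them, and 0 were called lower, where 25.6% and 23.6% of all genes were. These genes were read in the same libraries as the members and are not independent of them.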
